A study of Homo sapiens with 6 samples.

Results

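The RNA levels of DLD1 cells with METTL1 knockdown were compared with those of control DLD1 cells, in the input RNA that was sequenced beside an m7G pulldown. Genes were compared where the mean of both input libraries was at least 1 FPKM (a read level corrected for gene length and library size). This left 8400 of the 9450 genes in the table (88.9%), 7915 of them protein-coding. The table lists only genes with an m7G peak, so other genes were not analysed here. Nearest to this limit, DIABLO (mean 1.00 FPKM, just under it) and PDE5A (0.996) were left out, and MATN1-AS1 (1.001) and PANO1 (1.002) were kept.

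DLD1 is an established cell line from a human colorectal carcinoma. The comparison used 2 of the 6 libraries of the series: sh2-Input, whose genotype is given as METTL1 knockdown, and sh-NT-Input, whose genotype is given as control. The knockdown was stable and rested on a single construct, sh2; the series text mentions replications, but 1 input library was analysed for each line. All lines were grown in the same serum-containing medium. The co-culture libraries S-CAFs-w13 and DLD1-W13CM (both wild-type DLD1), which were used once for comparison, are the RNA-seq libraries of the series. The labels' protocols name co-cultures with S-CAFs and with CAFs; DLD1-W13CM was taken as the latter by elimination, since its title names no fibroblast and does not explain the letters CM.

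METTL1 is the catalytic subunit of a methyltransferase that works with WDR4 and puts 7-methylguanosine (m7G) into tRNAs and some other RNAs. NF-kB is a family of dimeric transcription factors (RELA, RELB, REL, NFKB1, NFKB2) that inhibitor proteins hold back until receptors for cytokines or bacterial products activate the kinases that remove them. In epithelial cells it is known for switching on neutrophil-attracting chemokines, antimicrobial proteins and its own inhibitors.

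With 1 library a side there was no replicate check and no test: every difference describes these libraries and not the conditions. Read numbers could be recovered from the values, since dividing one FPKM column by the other gave fractions of whole numbers, up to 1 common factor. They summed to at least 7744551 in the control and 8740238 in the knockdown input, with medians of 403.5 and 443.5 reads per gene. Intervals below are exact (Clopper-Pearson) 95% counting intervals of the FPKM ratio. They cover counting error only, not the spread between cultures, and PCR copies are not independent molecules. Fewer cells of a type and less RNA per cell cannot be told apart in such bulk samples.

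The libraries carried the epithelial markers of a colon cancer line. EPCAM stood at 228 FPKM in the control and 235 FPKM in the knockdown input, and CDX2, an intestinal transcription factor, at 48.8 and 43.8 FPKM. Keratin 8 (KRT8) stood at 1178 and 1399 FPKM. Of the 32 colon epithelial markers 18 were compared, with a median log2 ratio of 0.00. Of 25 fibroblast markers only S100A4, which epithelial cells also express, was in the table, and none of the 15 leukocyte or 10 endothelial markers was. Genes without an m7G peak are not listed, so a missing marker was not measured here and can still be expressed.

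METTL1 was lower in the knockdown input but far from absent. It stood at 5.80 FPKM in the control and 3.28 FPKM in the knockdown input, from at least 159 and 100 reads. This left 56.6% of the control level (43.6 to 73.1). On the log2(FPKM + 1) scale the difference was -0.67, and 143 of the 8400 genes (1.70%) were lower by more. In the co-culture pair METTL1 reached 1.78 FPKM in S-CAFs-w13, against 4.82 FPKM in DLD1-W13CM. WDR4, its partner, stood at 13 FPKM in the control and 15.6 FPKM in the knockdown input, 1.20-fold higher (1.05 to 1.37).

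Genes beside METTL1 on chromosome 12 went both ways. ATP23, a protease of the mitochondrial intermembrane space, stood at 5.78 and 3.20 FPKM (log2 ratio -0.69), as far apart as METTL1 itself. EEF1AKMT3, a methyltransferase of a translation elongation factor, stood at 1.18 and 2.17 FPKM (0.54), and the ubiquitin ligase MARCH9 at 6.59 and 4.51 FPKM (-0.46). The kinase CDK4 stood at 40.3 and 42.8 FPKM (0.09). The other 4 of the 8 neighbours compared lay between -0.17 and 0.09.

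Most genes stood at nearly the same level in both libraries. Over all genes the log2 ratio had a median of 0.01, and the middle part from the 5th to the 95th percentile ran from -0.45 to 0.45. At least 2-fold lower were 47 genes (0.56%), and at least 2-fold higher were 36 (0.429%). At 1.5-fold these counts were 225 (2.68%) and 210 (2.5%). The ratio was above 0 on the log2 scale for 4297 genes (51.2%). The counting interval lay above 1 for 2047 genes (24.4%) and below 1 for 1895 (22.6%). These shares are the background for each gene list below.

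**Figure D1:**
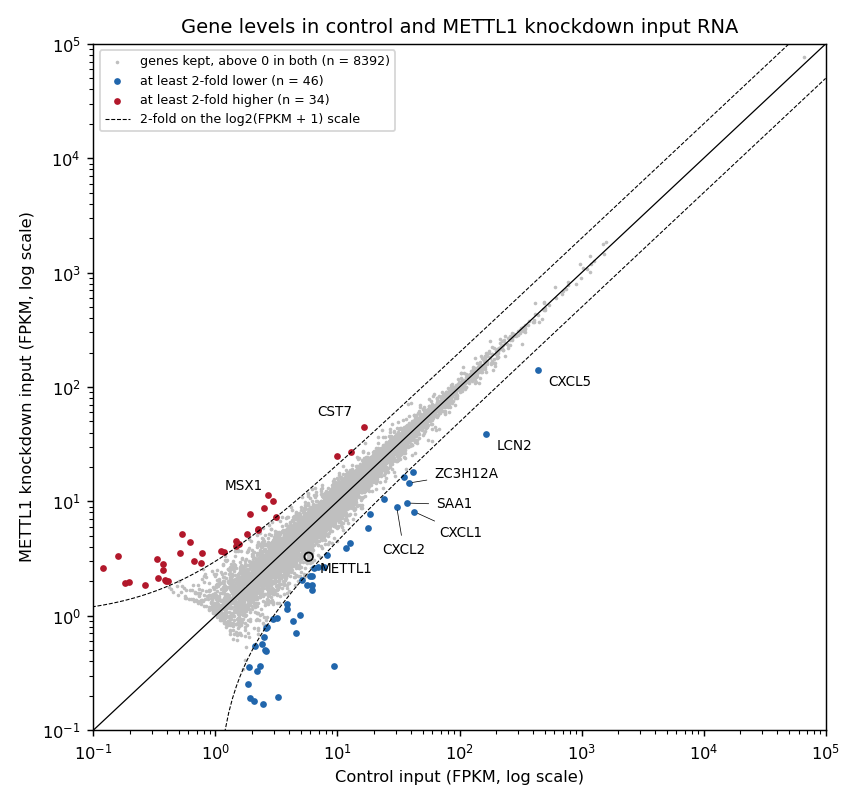
FPKM of each gene in the control (x axis) and METTL1 knockdown input (y axis), both log scales; genes listed at 0 in a library and Y-linked genes are not drawn. Coloured points are at least 2-fold apart on the log2(FPKM + 1) scale; above 50 FPKM the lower ones include CXCL5 and LCN2, while METTL1 (open circle, 5.80 and 3.28 FPKM) lies inside the 2-fold lines.

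Genes past 2-fold held a larger share of low genes and of noncoding RNAs than the table as a whole. Of protein-coding genes 0.493% were past 2-fold in either direction, against 9.07% of the 485 other genes. Between 1 and 2 FPKM this share was 3.86%, and between 10 and 50 FPKM 0.387%. Filter and bins use the mean of both libraries, so a low gene can enter through its higher library alone. GNB1L did so, at 0.383 FPKM in the control and 2.07 FPKM in the knockdown input. The share among low genes therefore depends in part on the filter. Among the 598 genes averaging 50 FPKM or more, 3 were past 2-fold downward and 0 upward. Those 3 were CXCL5, LCN2 and the small nuclear RNA U2. Among protein-coding genes past 2-fold, 9 of the 24 lower ones but 1 of the 15 higher ones (CST7) had a mean over 10 FPKM.

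The clearest group on the lower side was that of the chemokines, small secreted proteins that draw in white blood cells. Of the 16 chemokines listed, 6 were in the table. All 6 were lower in the knockdown input with a counting interval below 1, 5 of them at least 2-fold, and their median log2 ratio was -1.63 against 0.01 for all genes. CXCL1, CXCL2, CXCL5 and CXCL8 bind the neutrophil receptor CXCR2. They lie in a cluster on chromosome 4. That chromosome held 314 of the genes compared and 5 of the 47 lower ones, the fifth being TRMT10A, which lies outside the cluster. Chromosome 1 held 6 lower genes, and chromosomes 2 and 17 held 5 each.

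CXCL1 stood at 42.7 FPKM in the control and 8.10 FPKM in the knockdown input, 5.28-fold lower (4.33 to 6.47), with at least 579 and 122 reads counted. CXCL2 stood at 30.5 and 9.0 FPKM, 3.39-fold lower (2.83 to 4.09). CXCL5 was the most abundant of the chemokines, at 436 and 142 FPKM, 3.07-fold lower (2.96 to 3.18). These genes are close paralogs, and the sources used here do not say how reads matching several of them were assigned. CXCL8 (interleukin 8) stood at 6.18 and 1.66 FPKM, 3.72-fold lower (2.64 to 5.33). CCL20, which attracts cells that carry CCR6, stood at 4.56 and 0.705 FPKM, 6.47-fold lower (3.38 to 13.6), with at least 64 and 11 reads counted. CXCL16, a membrane-bound chemokine, showed the smallest difference, at 25.6 and 18.7 FPKM, 1.37-fold lower (1.23 to 1.53).

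Stretches before the start sites of these chemokines, except CXCL16, and of LCN2 are shown as textbook NF-kB targets that were lower together. The genes were picked on that ground, and NF-kB as a cause was not tested. SAA1, PI3 and RELB had no RefSeq window. ZC3H12A, TNFAIP3 and NFKBIA stand for the feedback genes described further on, of which TNFAIP3 and NFKBIA were less than 2-fold lower. Letters that match the 10-letter NF-kB consensus on either strand are in capitals. Each stretch is 60 bases long, from RefSeq on GRCh38.p14, written 5′ to 3′ on the gene's strand. They lie at chr4:73869289-73869348 (CXCL1, plus strand), chr4:74099239-74099298 (CXCL2, minus), chr4:73998734-73998793 (CXCL5, minus), chr4:73740459-73740518 (CXCL8, plus), chr2:227813738-227813797 (CCL20, plus), chr9:128149253-128149312 (LCN2, plus), chr1:37474470-37474529 (ZC3H12A, plus), chr6:137867167-137867226 (TNFAIP3, plus) and chr14:35404796-35404855 (NFKBIA, minus).
CXCL1: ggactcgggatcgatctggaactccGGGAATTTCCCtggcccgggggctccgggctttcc
CXCL2: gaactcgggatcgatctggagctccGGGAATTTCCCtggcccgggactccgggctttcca
CXCL5: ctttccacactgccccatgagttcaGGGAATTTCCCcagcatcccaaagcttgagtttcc
CXCL8: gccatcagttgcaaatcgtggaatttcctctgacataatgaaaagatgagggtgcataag
CCL20: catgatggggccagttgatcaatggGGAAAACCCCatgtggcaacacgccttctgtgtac
LCN2: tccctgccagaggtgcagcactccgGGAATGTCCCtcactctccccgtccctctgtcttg
ZC3H12A: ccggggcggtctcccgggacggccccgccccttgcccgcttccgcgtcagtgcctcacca
TNFAIP3: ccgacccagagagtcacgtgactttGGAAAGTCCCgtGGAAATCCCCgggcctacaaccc
NFKBIA: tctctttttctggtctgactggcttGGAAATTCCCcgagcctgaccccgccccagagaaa

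CXCL1, CXCL2 and CXCL5 carried the same 11 capital letters, 2 overlapping matches, one on each strand. In CXCL1 the upstream match began 79 bases before the start site, as it did in CCL20. CXCL8 and ZC3H12A had no match, which says only that these letters are not in their windows. Over the 250 bases before the start site, 9.96% of the 35116 RefSeq windows and 15.3% of the 6430 compared genes with a window held a match. Of the 47 genes at least 2-fold lower, 20 had a window. Among these, 8 held a match (40%): CCL20, CXCL1, CXCL2, CXCL5, LCN2, PDZK1IP1, TMEM243 and LINC01775. CXCL1, CXCL2 and CXCL5 are close paralogs and not separate cases, and the counting interval of LINC01775 included no difference. At 1.5-fold lower the share was 20.7% of 135 genes. Of 15 higher genes with a window 3 held one (20%): C17orf58, HOMER3 and MSX1. At 1.5-fold higher it was 13.7% of 139. A match is a run of letters and does not show binding.

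Acute-phase and antimicrobial genes split. Of 9 compared, 4 were at least 2-fold lower and none was 2-fold higher, while the median log2 ratio was -0.11. Without the filter on levels that median was -0.53, and over the members averaging 5 FPKM or more -0.74. LCN2 (lipocalin 2), which withholds iron from bacteria, stood at 163 FPKM in the control and 39.2 FPKM in the knockdown input, 4.16-fold lower (3.83 to 4.52), with at least 2729 and 729 reads counted. SAA1, a serum amyloid A protein, stood at 37.1 and 9.67 FPKM, 3.84-fold lower (3.01 to 4.94). PI3 (elafin), an inhibitor of neutrophil elastase, stood at 17.7 and 5.81 FPKM, 3.05-fold lower (2.1 to 4.52). PDZK1IP1, a small membrane protein, stood at 11.7 and 3.89 FPKM, 3.01-fold lower (2.25 to 4.07).

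The other 5 of these genes stood level or higher. SLPI, a protease inhibitor related to PI3, stood at 18.8 and 18.9 FPKM, and the complement inhibitor CD59 at 17.1 and 15.9 FPKM, with intervals that included 1 for both. CD55, another complement inhibitor, stood at 5.72 and 7.31 FPKM, 1.28-fold higher (1.11 to 1.47). The calcium-binding protein S100P stood at 7.32 and 11.5 FPKM, 1.57-fold higher (1.22 to 2.03). NOS2, the inducible nitric oxide synthase, stood at 1.37 and 2.25 FPKM, 1.63-fold higher (1.18 to 2.28).

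**Figure D2:**
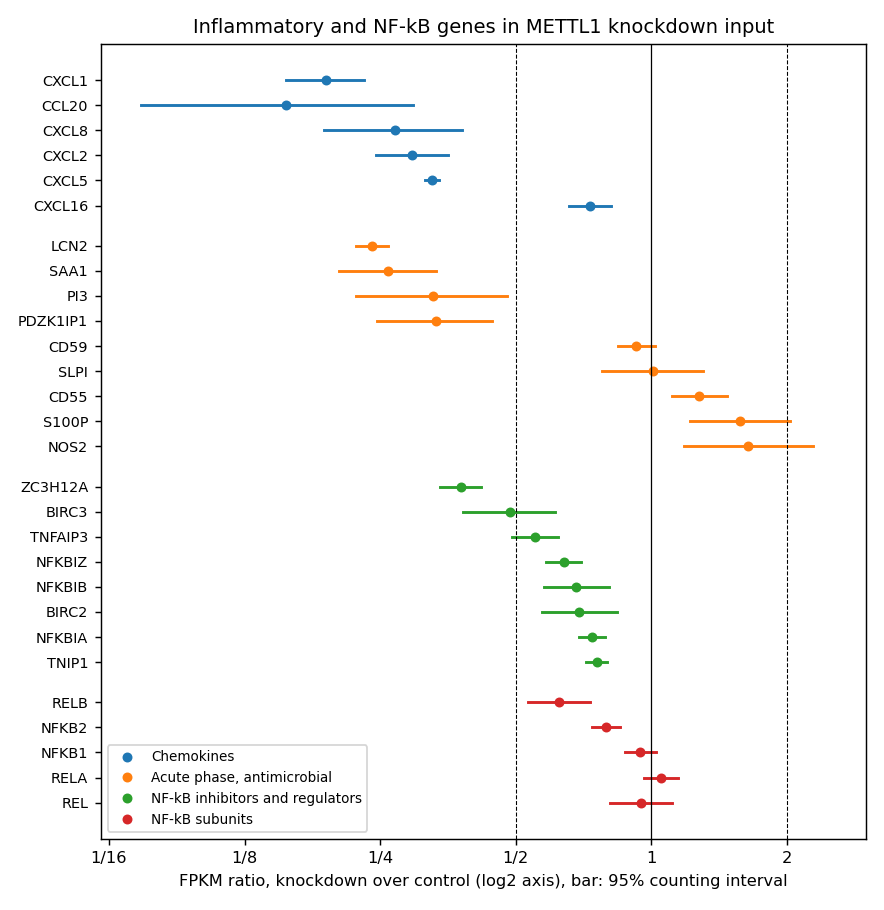
FPKM ratio of knockdown over control input (log2 axis) for chemokines, acute-phase genes and NF-kB genes; points are the ratios and bars their 95% counting intervals. Dashed lines mark 2-fold either way; 5 chemokines and 4 acute-phase genes lie left of the lower line with their whole bars, while the NF-kB subunits RELA, NFKB1 and REL have bars that include 1.

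The NF-kB subunits, inhibitors and other regulators, taken as 1 list, stood mostly lower in the knockdown input. Of the 20 compared, 16 had a log2 ratio below 0 and 4 above it. The counting interval lay below 1 for 12 and above 1 for 2, and the median log2 ratio was -0.30. At least 1.5-fold lower were 5: ZC3H12A, TNFAIP3, BIRC3, RELB and NFKBIZ.

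ZC3H12A (regnase-1), an RNase that degrades inflammatory mRNAs, stood at 38.4 and 14.5 FPKM, 2.65-fold lower (2.39 to 2.94), and was the only one past 2-fold. TNFAIP3 (A20), a ubiquitin-editing inhibitor, stood at 13.9 and 7.70 FPKM, 1.81-fold lower (1.61 to 2.04). BIRC3, a ubiquitin ligase of the TNF receptor complex, stood at 2.65 and 1.28 FPKM, 2.07-fold lower (1.63 to 2.62) as a plain ratio. NFKBIZ, a nuclear cofactor of NF-kB, stood at 19.2 and 12.2 FPKM. NFKBIA, the classical inhibitor IkB-alpha, stood at 81.3 and 59.99 FPKM, 1.36-fold lower (1.27 to 1.45), and TNIP1, a partner of A20, at 47.0 and 35.5 FPKM. TNIP2 and the deubiquitinase OTULIN were the 2 with an interval above 1, at 45.5 and 53.5 FPKM and at 5.32 and 6.57 FPKM.

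Among the subunits, RELB stood at 24.4 and 15.2 FPKM, 1.61-fold lower (1.37 to 1.88), and its partner NFKB2 at 34.7 and 27.4 FPKM, 1.26-fold lower (1.18 to 1.36). RELA stood at 17.6 and 18.5 FPKM, NFKB1 at 17.99 and 17.01 FPKM and REL at 2.70 and 2.56 FPKM. The counting intervals of these 3 subunits included 1.

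Receptors, adaptors and kinases upstream of NF-kB went both ways. Of 24 compared, 14 were above 0 on the log2 scale and the median was 0.08; the interval lay above 1 for 10 and below 1 for 6. TNFRSF1B, a TNF receptor, stood at 1.88 and 3.88 FPKM, 2.07-fold higher (1.56 to 2.75). IKBKG (NEMO), the scaffold of the kinase complex, stood at 2.58 and 4.17 FPKM. TNFRSF1A, the main TNF receptor of epithelial cells, stood at 13.4 and 9.67 FPKM, 1.39-fold lower (1.23 to 1.58). The kinases IRAK2 and IKBKE stood at 10.2 and 6.54 FPKM and at 10.95 and 7.44 FPKM.

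Other NF-kB target genes and cytokines showed smaller differences. Of 20 other targets 10 were above 0, and the median was -0.03, or -0.18 over those averaging 5 FPKM or more. The counting interval lay below 1 for 9 and above 1 for 4. The epithelial transcription factor EHF was the only one past 1.5-fold, at 43.0 and 26.4 FPKM. Among 9 cytokines and growth factors the median was -0.21, but 0.027 over those averaging 5 FPKM or more. CSF1, a growth factor of macrophages, stood at 7.43 and 3.94 FPKM, 1.89-fold lower (1.61 to 2.22), and TNFSF15, a TNF-like ligand, at 4.86 and 2.64 FPKM, 1.84-fold lower (1.57 to 2.17). The cytokine LIF stood at 31.6 and 22.8 FPKM, while the EGF receptor ligand TGFA was higher, at 17.3 and 24.3 FPKM. IL1RN, the natural antagonist of interleukin 1, is in neither list and differed more. It stood at 0.411 and 2.01 FPKM, 4.88-fold higher (2.74 to 9.35), with at least 14 and 76 reads counted.

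Other inflammatory pathways showed smaller differences. Of 20 interferon response genes none was past 1.5-fold and 7 were above 0, with a median of -0.03. Among these the transcription factor IRF3 stood at 17.7 and 26.5 FPKM. Of 16 genes of MHC class I presentation 3 were above 0, with a median of -0.09. The counting interval lay below 1 for 5 and above 1 for 2, the largest difference being that of the peptide loader TAPBP, at 52.0 and 41.2 FPKM. Of 13 STAT3 target genes 11 were above 0, with a median of 0.10; LCN2 belongs to this list too, and the kinase PIM2 stood at 4.37 and 7.48 FPKM. The 16 genes of IL-17 response and mRNA stability had a median of 0.03, and ZC3H12A and NFKBIZ, already given, were the only ones past 1.5-fold.

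**Figure D3:**
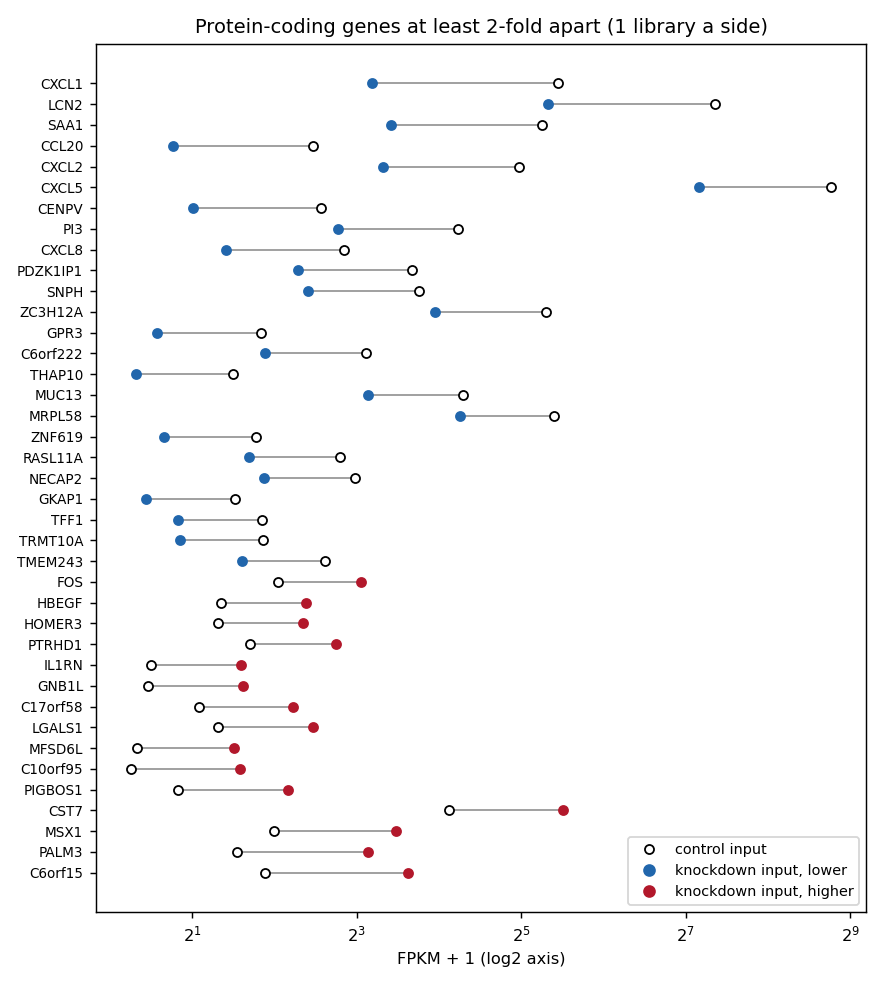
Levels as FPKM + 1 (log2 axis) of all protein-coding genes at least 2-fold apart, 24 lower and 15 higher in the knockdown input; open circles are the control library and filled circles the knockdown library. LCN2 and CXCL5 have the highest levels, and most of the higher genes stand below 4 FPKM in the control.

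Beyond inflammation, the lower protein-coding genes came from many classes. MUC13, a membrane mucin of the gut, stood at 18.5 and 7.82 FPKM, 2.37-fold lower (2.07 to 2.72). MRPL58, a ribosome-bound peptidyl-tRNA hydrolase of mitochondria, stood at 41.3 and 18.1 FPKM, 2.28-fold lower (1.95 to 2.68). SNPH (syntaphilin), which anchors mitochondria, stood at 12.6 and 4.32 FPKM, 2.91-fold lower (2.53 to 3.35). CENPV, a centromere protein, stood at 4.95 and 1.02 FPKM, 4.87-fold lower (3.34 to 7.30).

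TRMT10A, a methyltransferase of tRNA guanines, stood at 2.64 and 0.805 FPKM, 3.28-fold lower (2.29 to 4.80). NECAP2, which acts in clathrin-mediated endocytosis, stood at 6.90 and 2.68 FPKM. The uncharacterised C6orf222 stood at 7.68 and 2.69 FPKM, and the small GTPase RASL11A at 5.95 and 2.22 FPKM. The receptor GPR3 (2.58 and 0.488 FPKM), THAP10 (1.83 and 0.251 FPKM), ZNF619 (2.42 and 0.572 FPKM) and GKAP1 (1.87 and 0.356 FPKM) were low in both libraries. TFF1, a trefoil protein of the gut lining, stood at 2.60 and 0.781 FPKM. TMEM243, a membrane protein, stood at 5.12 and 2.05 FPKM.

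On the higher side CST7 was the best measured. CST7 (cystatin F), an inhibitor of lysosomal proteases, stood at 16.4 and 44.5 FPKM, 2.72-fold higher (2.27 to 3.28), with at least 159 and 481 reads counted. MSX1, a homeobox transcription factor that responds to BMP and Wnt signals, stood at 2.98 and 10.1 FPKM, 3.39-fold higher (2.58 to 4.52). PALM3, of the paralemmin family, stood at 1.93 and 7.81 FPKM, 4.06-fold higher (2.98 to 5.61). C6orf15 stood at 2.69 and 11.3 FPKM, 4.22-fold higher (2.43 to 7.75), with at least 16 and 75 reads counted.

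HBEGF, a ligand of the EGF receptor, stood at 1.55 and 4.22 FPKM, 2.72-fold higher (1.95 to 3.83). FOS, a subunit of AP-1, stood at 3.13 and 7.31 FPKM, 2.33-fold higher (1.86 to 2.95). It was no longer past 2-fold on the authors' scaling, which shifts every log2 ratio by -0.0143. LGALS1 (galectin-1) stood at 1.48 and 4.54 FPKM, 3.07-fold higher (1.76 to 5.62). GNB1L, a WD-repeat protein, stood at 0.383 and 2.07 FPKM, 5.40-fold higher (3.60 to 8.36), with at least 28 and 168 reads counted. HOMER3, a scaffold protein, stood at 1.48 and 4.1 FPKM, and PTRHD1 at 2.25 and 5.74 FPKM. The other 4 higher coding genes, PIGBOS1, C10orf95, MFSD6L and C17orf58, stood between 0.195 and 1.12 FPKM in the control and between 1.85 and 3.70 FPKM in the knockdown input.

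Noncoding RNAs made up 23 of the 47 lower and 21 of the 36 higher genes. Of these, 8 lower and 11 higher ones are antisense RNAs, whose reads cannot be told from those of the overlapping gene, since the sources used here do not say whether counting used the strand. UCA1, a long noncoding RNA often found in carcinomas, stood at 8.20 and 3.40 FPKM, 2.41-fold lower (1.87 to 3.12). LINC00460 stood at 0.332 and 3.14 FPKM, 9.44-fold higher (3.43 to 36.3), with at least 4 and 42 reads counted. ADAMTS19-AS1 was listed at 0 in the control and at 2.52 FPKM in the knockdown input. U2, a multi-copy spliceosomal RNA, was listed at 346 FPKM in the control and at 0 in the knockdown input, a value that a near-identical copy could share.

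The precision of these calls varied. Recovered read numbers are the smallest that the values allow, so true numbers can be larger and true intervals narrower. Recovered reads of both libraries summed to under 100 for 25 of the 47 lower genes, and the interval excluded 2-fold for at least 27. It included no difference for LINC01775, at 3 and 1 recovered reads, and U2 had none. For 24 of the 36 higher genes recovered reads summed to under 100, and the interval excluded 2-fold for at least 20. It included no difference for PAWRP1 and AL357078.1, and LINC01952 had none. By the place of the listed m7G peak, 3.69% of the 1275 genes with a peak in a noncoding or other exon were past 2-fold. The share was 0.437% of the 4347 with a peak in the 5′ UTR and 0.659% of the 2581 with one in the coding sequence. In the exon class all genes past 2-fold but LCN2, NECAP2 and MFSD6L were noncoding. This gap therefore cannot be told from that between noncoding and protein-coding genes (9.07% against 0.493%).

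Genes of tRNA biology mostly differed by small amounts. Of 52 tRNA-modifying enzymes 27 were above 0, with a median of 0.01; TRMT10A, already given, and TP53RK, a kinase of the KEOPS complex, at 6.98 and 4.15 FPKM, were the only ones past 1.5-fold. Of 34 tRNA synthetases 14 were above 0 and the median was -0.05, with the counting interval below 1 for 15 and above 1 for 3. NARS2, the mitochondrial asparaginyl-tRNA synthetase, stood at 10.9 and 6.03 FPKM. The 21 cap and other m7G genes had a median of -0.01, and SNUPN, which imports capped small nuclear RNPs, stood at 6.2 and 2.96 FPKM, 2.1-fold lower (1.67 to 2.63) as a plain ratio. Translation factors had a median of -0.03 over 38 genes, none past 1.5-fold.

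Ribosomal protein genes of the cytosol differed by small amounts. Of 53 compared 19 were above 0, the interval lay below 1 for 22 and above 1 for 7, and the median was -0.06 with none past 1.5-fold. Respiratory chain genes had a median of -0.08 over 58 genes, 19 above 0. NDUFB6, a subunit of complex I, stood at 15.4 and 9.30 FPKM, and another, NDUFB5, at 3.05 and 5.19 FPKM.

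Genes of the cell cycle gave medians of 0.00 (40 replication genes), 0.03 (36 mitosis genes) and 0.01 (25 CDK inhibitors and p53 targets). The phosphatase CDC25C stood at 9.64 and 5.96 FPKM, and POLE2, a DNA polymerase subunit, at 3.17 and 1.72 FPKM. The death receptor FAS stood at 1.39 and 2.73 FPKM, and the inhibitor CDKN2D at 4.14 and 2.40 FPKM.

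Higher levels were spread over several lists by small amounts. Of 23 cholesterol synthesis genes 20 were above 0, 16 with a counting interval above 1 and 2 below it, and the median was 0.18. INSIG1, a sterol-regulated brake on the pathway, stood at 13.2 and 20.9 FPKM, 1.58-fold higher (1.42 to 1.77). FDFT1 (squalene synthase) stood at 42.2 and 56.7 FPKM. Of 18 fatty acid synthesis genes 13 were above 0; SCD, the desaturase, stood at 47.7 and 69.7 FPKM, 1.46-fold higher (1.39 to 1.53).

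Of 29 Wnt and stem cell genes 24 were above 0, 18 with an interval above 1 and 3 below it, with a median of 0.14. Besides MSX1, the Notch target HES1 stood at 28.2 and 47.2 FPKM, 1.68-fold higher (1.52 to 1.85). The Wnt target SP5 stood at 4.97 and 7.6 FPKM. LGR5, the marker of intestinal stem cells, went the other way, at 5.59 and 4.64 FPKM. Of 21 galectins, S100 proteins, cystatins and their relatives 15 were above 0, with a median of 0.18; S100A4 stood at 5.79 and 11.2 FPKM, 1.94-fold higher (1.43 to 2.67).

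**Figure D4:**
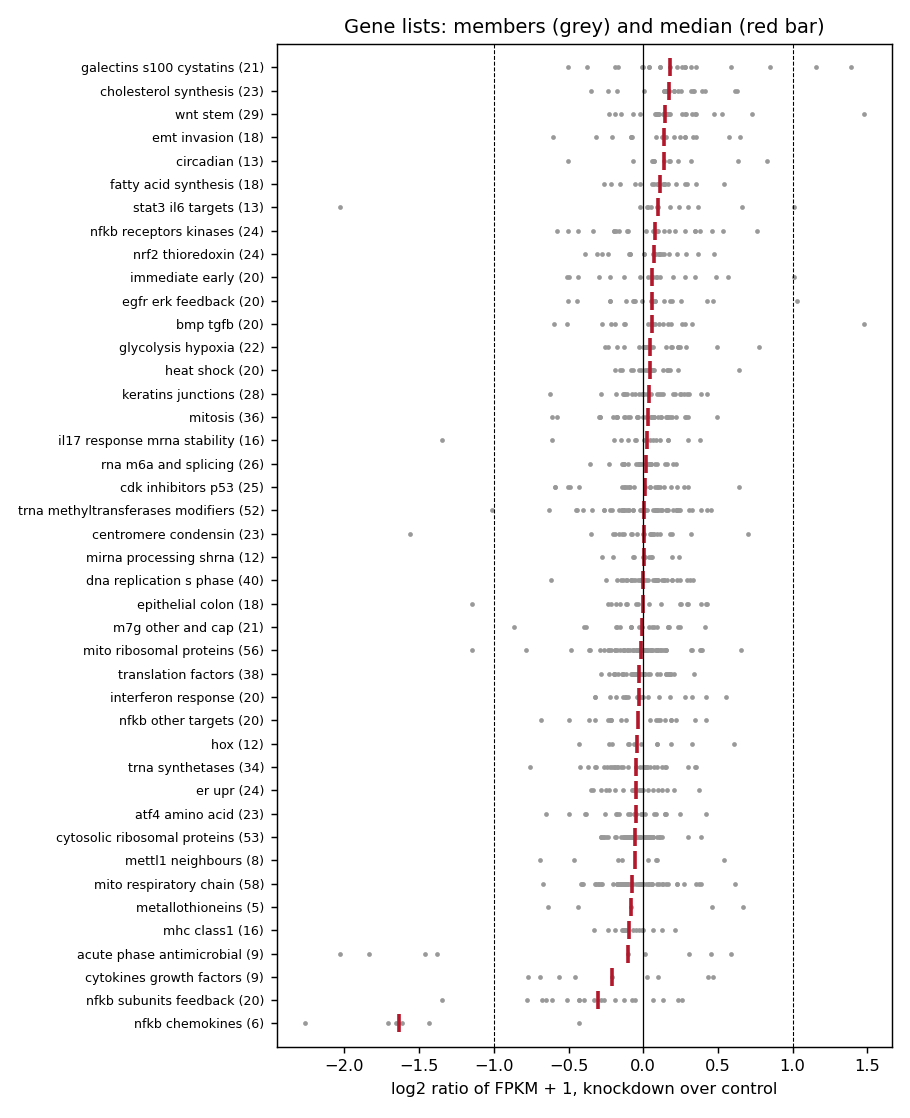
Log2 ratio of FPKM + 1, knockdown over control, for the genes of each list (grey points) and the list's median (red bar); numbers in brackets count the genes compared. The chemokines have the lowest median, -1.63, and the other lists lie between -0.30 and 0.18.

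The lower genes overlapped with those of the co-culture pair, which shares no library with the knockdown. A mean of 1 FPKM or more in both pairs was reached by 7945 genes, 35 of which were at least 2-fold lower in the knockdown. Of these, 12 (34.3%) were also lower by 2-fold or more in S-CAFs-w13 than in DLD1-W13CM, against 6.81% of all 7945 genes; they were 2.22% of the 541 genes lower there. The protein-coding ones were CXCL1, CXCL2, CXCL5, CXCL8, CCL20, SAA1, PI3, PDZK1IP1 and ZC3H12A, and the others RNU2-63P, AL139035.1 and AC040169.1. CXCL1, CXCL2 and CXCL5 are close paralogs and not separate cases. AL139035.1 and AC040169.1 had 3 and 2 recovered reads in the knockdown input. AC093732.1 was the 1 gene past 2-fold the other way.

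Most of these 12 genes were further apart in the co-culture pair than in the knockdown pair. By the way the 12 were picked, the rest of the 35 differed less there or went the other way. In DLD1-W13CM, CXCL5 stood at 1668 FPKM and SAA1 at 168 FPKM; S-CAFs-w13 held 402 and 39.7 FPKM of them. Values of the other genes follow in that order. PI3 stood at 16.4 and 1.12 FPKM, and CXCL8 at 37.9 and 5.80 FPKM. LCN2, second lowest of the coding genes in the knockdown on the log2(FPKM + 1) scale, differed less there, at 628 and 376 FPKM (log2 ratio -0.74). MUC13, lower in the knockdown, stood at 21.6 and 24.0 FPKM. NFKBIA stood at 32.6 and 8.47 FPKM in the co-culture pair, further apart than in the knockdown pair.

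Fewer of the higher genes were shared at 2-fold. Of 23 genes at least 2-fold higher in the knockdown, 2 (8.70%) were so in S-CAFs-w13 as well, against 6.04% of all genes: LGALS1, at 2.30 and 24.4 FPKM, and GLUD1P3. Another 6 (26.1%) were at least 2-fold lower there, against 6.81% of all genes, among them C6orf15, FOS and the antisense RNA AC011603.2. AC011603.2 stood at 0.762 FPKM in the control and 2.90 FPKM in the knockdown input. In DLD1-W13CM it was listed at 666 FPKM and in S-CAFs-w13 at 221 FPKM. Whether reads of overlapping genes were assigned alike in the 2 pairs was not tested. With 1.5-fold as the limit in the knockdown, the shares were alike: 25 of 181 lower genes (13.8%) and 23 of 161 higher genes (14.3%) were past 2-fold the same way in S-CAFs-w13. Over all 7945 genes Spearman's rho between the log2 ratios of the 2 pairs was 0.058, given as a description across genes, which are not independent replicates.

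**Figure D5:**
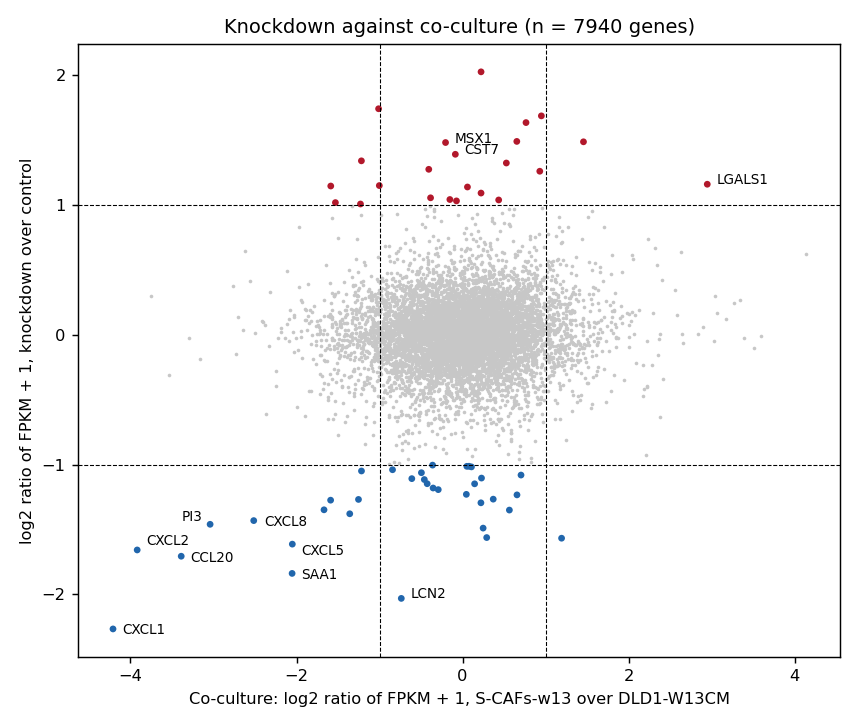
Log2 ratio of FPKM + 1 in the co-culture pair (x axis, S-CAFs-w13 over DLD1-W13CM) and in the knockdown pair (y axis), one point per gene that averages 1 FPKM or more in both, Y-linked genes left out; dashed lines mark 2-fold. CXCL1, CXCL2, CXCL5, CXCL8, CCL20, SAA1 and PI3 lie in the lower left corner, and the cloud of all genes shows no slope (Spearman's rho 0.058).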

How the data were processed

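DLD1 input RNA was compared between 1 METTL1 knockdown and 1 control library, and set beside the co-culture pair. Per the labels' protocols, TRIzol RNA went into Illumina TruSeq libraries. Tools listed in the submitters' processing notes, with no role given, are HISAT2 2.1.0, featureCounts 1.6.3, cutadapt 2.5, SAMtools 1.10, HOMER 4.10.4 and DESeq2. The authors deposited FPKM per gene; for the input columns the unit was inferred from values that behave like the FPKM of the co-culture table. They also deposited log2 fold changes, p-values and a fold enrichment (a ratio) per m7G peak, per the file headers. The log2 fold changes gave the shift called the authors' scaling, and no other result here rests on these values.

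Genes averaging 1 FPKM or more were compared as log2((FPKM + 1)/(FPKM + 1)), knockdown over control, which understates the change of low genes; a fold printed with an interval is the plain ratio of FPKM. Whole reads were recovered for 8398 of the 8400 genes compared from the ratio of the columns (relative tolerance 1e-13) as the smallest whole numbers the values allow, so intervals are at their widest. The recovery was tested on simulated data. Motifs were searched in RefSeq windows of GRCh38.p14. The members and lists were chosen with earlier results of these data known, so lists describe and support nothing. Named were METTL1, WDR4 and neighbours of METTL1, the 30 lowest and 30 highest genes as far as they were informative, the members of each list with the largest ratios and its defining members, every chemokine and acute-phase gene, and genes past 2-fold in both pairs; the remaining genes past 2-fold were chosen after their values were seen. Python 3.11.15, NumPy 2.4.6, pandas 2.3.3, SciPy 1.17.1 and matplotlib 3.10.9 were used.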

Additional observations from a re-analysis of the deposited data

How the results depend on the processing

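With 1 library a side no value has a replicate check, and no paired analysis was possible because each group holds a single library. The counts of genes past 2-fold rested on the filter and the pseudocount: 47 lower and 36 higher genes became 112 and 103 with a pseudocount of 0.1 FPKM, 73 and 71 with 0.5 FPKM, and 16 and 7 over genes averaging 5 FPKM or more. At 1.5-fold they were 225 and 210. Alternatives chosen after seeing the data gave 24 and 15 over protein-coding genes, and 21 and 11 over genes with at least 100 recovered reads. The genes also past 2-fold in the co-culture pair went from 12 to 25 (lower) and from 2 to 23 (higher) at 1.5-fold. The counts stayed within 1.5 times without a filter (61 and 49), on the authors' scaling (49 and 35), centred on the median (48 and 36) and over genes whose counting interval excludes no difference (45 and 33). Of 42 list medians, 2 changed sign by a log2 move of 0.1 or more, both over genes averaging 5 FPKM or more: cytokines and growth factors from -0.21 to 0.027, and metallothioneins from -0.08 to 0.46. That filter leaves fewer genes. Another 7 lists with medians near 0 crossed it by less, under at least 1 alternative, among them other NF-kB targets (from -0.03 to 0.04 without a filter) and cap genes (from -0.01 to 0.05 over genes averaging 5 FPKM or more).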

Other observations

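Some lists held few large differences in both directions. Among the metallothionein and zinc genes, MT2A, which binds zinc and copper, stood at 26.9 FPKM in the control and 43.3 FPKM in the knockdown input, 1.61-fold higher (1.42 to 1.84), while its relative MT1X stood at 2.21 and 1.07 FPKM, 2.07-fold lower (1.21 to 3.65); reads of such close paralogs can be shared. Of 13 circadian genes 11 were above 0 on the log2 scale, with a median of 0.14. NR1D1 (REV-ERB alpha), a repressor of the clock, stood at 23.3 and 42.2 FPKM, 1.81-fold higher (1.65 to 1.99). BHLHE40, another clock repressor, stood at 5.01 and 8.34 FPKM, and NFIL3 at 10.7 and 7.26 FPKM.

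Of 22 glycolysis and hypoxia genes 16 were above 0, and the lactate exporter SLC16A3 stood at 6.69 and 12.2 FPKM, 1.82-fold higher (1.65 to 2.0). Of the heat shock genes HSPA1B stood at 31.0 and 49.1 FPKM. Mitochondrial ribosomal proteins had a median of -0.01 over 56 genes; MRPL47 stood at 29.4 and 16.6 FPKM, 1.77-fold lower (1.51 to 2.07), and MRPL33 at 4.29 and 7.32 FPKM. Of 12 HOX genes HOXA7 was furthest apart, at 23.6 and 36.5 FPKM. Medians by chromosome ran from -0.03 on chromosome 6 to 0.07 on chromosome 21.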
